A study of Mus musculus with 6 samples.

Results

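The CXC chemokine family was examined through 10 of its genes, Cxcl1, Cxcl2, Cxcl3, Cxcl9, Cxcl10, Cxcl13, Cxcl14, Cxcl16, Pf4 and Ppbp, chosen by gene symbol from the 24047 rows of the deposited count table. RNA was sequenced from 2 groups of 3 libraries of mouse monocytes, and every one of them came from a WT mouse of strain C5/Bl6 with nephrotoxic nephritis (NTN), an antibody-driven glomerular injury, killed on day 13. Kidney libraries (labelled Kid.double_pos, replicates 7, 8 and 22) hold renal monocytes that were enriched with an isolation kit and sorted, and spleen and marrow libraries (labelled SPL_BM.double, replicates 2, 24 and 26) hold cells of spleen and bone marrow. The series used 10 mice, aged 8 to 10 weeks per the sample labels. The labels do not name the sorted markers, do not describe sorting outside the kidney, and do not say whether a library is 1 animal or a pool, so each p-value covers only how these samples vary, which may be technical. No library came from a mouse without nephritis, so tissue, handling and nephritis cannot be told apart.

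Chemokines are small secreted proteins that guide leukocytes through G protein-coupled receptors, and the CXC branch is named for the single residue between its first cysteines. Cxcl1, Cxcl2, Cxcl3 and Ppbp carry a Glu-Leu-Arg motif before that site and draw neutrophils through CXCR2. Cxcl9 and Cxcl10 lack the motif, are induced by interferons and draw activated T cells and NK cells through CXCR3. Cxcl13 attracts B cells through CXCR5, Cxcl16 is made as a membrane protein that binds CXCR6 when shed, and Pf4 is a heparin-binding chemokine best known from platelet granules. In glomerulonephritis, chemokines from resident cells and infiltrating myeloid cells are known to recruit leukocytes to the glomerulus and interstitium.

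Library totals ran from 3492391 to 7938223 counts in kidney and from 7311991 to 9727489 in spleen and marrow. By counting error alone, a count of 0 allows up to 3 counts. These equal 0.356 to 0.881 CPM in a kidney library and 0.322 to 0.410 CPM in a spleen and marrow library. CPM are counts divided by a library size that TMM has adjusted. The leukocyte gene Ptprc had 344 to 397 CPM in kidney, against 325 to 331 CPM in spleen and marrow, and the monocyte gene Ccr2 had 764 to 1168 CPM in kidney, against 623 to 705 CPM in spleen and marrow, and all 7 markers of monocytes and leukocytes had counts in each library. Of these 7, 3 were called higher in kidney and 2 lower, where 7.83% of all genes tested were called higher and 5.9% lower. Csf1r, the receptor gene for M-CSF, had 277 to 457 CPM in kidney, against 109 to 120 CPM in spleen and marrow, while Ly6c2, a marker of classical monocytes, had 317 to 810 CPM in kidney, against 5020 to 5860 CPM in spleen and marrow. Kidney replicate 22 was the shallowest library, and kidney replicate 8 held 943 CPM over 12 endothelial markers, against 28.9 and 14.1 CPM in kidney replicates 7 and 22 and 4.92 to 11.3 CPM in spleen and marrow. Over 12 neutrophil markers, kidney replicate 22 held 45668 CPM, kidney replicates 7 and 8 held 1386 and 4646 CPM, and spleen and marrow libraries held 23148 to 30762 CPM. Most of the sum in kidney replicate 22 was S100a8, S100a9 and Ngp (16137, 13363 and 8146 CPM). Spleen and marrow replicates 24 and 26 were close to each other, with a chi-square over degrees of freedom of 2.86, where the other within-group pairs had 22.2 to 59.7. In bulk RNA, fewer cells of a type and less RNA per cell cannot be told apart, here and in every comparison that follows.

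The promoters of 4 members are shown because they hold the sequence matches that set Cxcl1, Cxcl2, Cxcl3 and Cxcl10 apart from the other members. Of the 10 members, 9 had an entry in the RefSeq promoter table (GRCm38.p6), and the 250 bases before the start are printed 5′ to 3′ on the gene's own strand, with capitals for matches to the kappaB consensus, the site of NF-kB, or to a pair of GAAA repeats set 2 bases apart, the core of the interferon-stimulated response element. The windows are chr5:90890995-90891244 on the plus strand for Cxcl1, chr5:90903649-90903898 on the plus strand for Cxcl2, chr5:90785851-90786100 on the plus strand for Cxcl3 and chr5:92348890-92349139 on the minus strand for Cxcl10, in a build other than the mm9 of the submitters' processing notes.
Cxcl1: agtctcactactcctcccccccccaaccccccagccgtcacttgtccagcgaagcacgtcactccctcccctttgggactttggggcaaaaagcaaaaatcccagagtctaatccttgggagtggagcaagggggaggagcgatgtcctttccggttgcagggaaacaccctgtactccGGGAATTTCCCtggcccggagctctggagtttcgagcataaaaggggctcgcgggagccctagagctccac
Cxcl2: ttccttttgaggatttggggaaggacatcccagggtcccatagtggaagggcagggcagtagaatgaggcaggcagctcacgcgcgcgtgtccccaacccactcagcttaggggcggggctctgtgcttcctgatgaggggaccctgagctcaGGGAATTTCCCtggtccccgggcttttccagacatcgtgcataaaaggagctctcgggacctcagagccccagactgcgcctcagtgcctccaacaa
Cxcl3: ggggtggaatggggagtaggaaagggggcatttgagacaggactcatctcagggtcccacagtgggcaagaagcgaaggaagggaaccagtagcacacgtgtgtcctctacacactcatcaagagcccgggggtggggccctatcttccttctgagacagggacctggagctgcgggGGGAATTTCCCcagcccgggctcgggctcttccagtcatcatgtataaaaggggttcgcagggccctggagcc
Cxcl10: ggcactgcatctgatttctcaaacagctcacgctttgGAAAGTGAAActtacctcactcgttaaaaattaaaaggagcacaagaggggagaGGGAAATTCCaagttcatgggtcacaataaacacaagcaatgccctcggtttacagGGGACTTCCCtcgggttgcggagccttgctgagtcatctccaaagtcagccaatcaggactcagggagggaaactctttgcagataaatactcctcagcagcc
Cxcl1, Cxcl2 and Cxcl3 share the letters GGGAATTTCC, which begin 71, 97 and 73 bases before the start, and each site also matches the kappaB consensus on the other strand, shifted by 1 base. Cxcl10 has kappaB matches that begin 159 and 103 bases before the start and a response element match, GAAAGTGAAA, which begins 213 bases before it. Searched on both strands, GGGAATTTCC was in 0.0851% of 27025 promoter windows of the same length (the first listed start per gene), the kappaB consensus in 3.75% and the response element core in 3.04%. GGGAATTTCC was picked as the kappaB match that most members share. Its presence in Cxcl1, Cxcl2 and Cxcl3 therefore follows from that choice, and its share over all windows is no test of it. Cxcl14 held the only other match to either motif among the members, at GAAACAGAAA. The letters of the interferon-gamma activated site, TTCNNNGAA, were in 7.18% of windows and, among the members, in that of Cxcl14. A match is a description of letters in these windows, and binding was not measured.

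Of the 10 members, 8 rose in kidney and 0 fell by edgeR's quasi-likelihood test with Benjamini-Hochberg adjustment over 10626 genes, where 7.83% of all genes tested were called higher and 5.9% lower. No member was lower at an unadjusted p under 0.05 either, and DESeq2 and limma-voom also called 0 lower. The median log2 fold change of the members, kidney over spleen and marrow, was 4.71, beside 0.05 over all genes tested. The 8 that rose were Cxcl3, Cxcl9, Cxcl10, Cxcl13, Cxcl14, Cxcl16, Pf4 and Ppbp, and in each of them every kidney library lay above every spleen and marrow library, as did those of 19.2% of all genes tested. The groups overlapped for Cxcl1 and Cxcl2. Markers of monocyte and macrophage state moved with these genes. Of 10 macrophage markers 8 were called higher in kidney, and their sum was 7015 to 7916 CPM in kidney, against 1317 to 1485 CPM in spleen and marrow. Of 9 non-classical monocyte markers 5 were higher, with sums of 811 to 1017 CPM in kidney, against 255 to 291 CPM in spleen and marrow. Of 8 classical monocyte markers 3 were lower, with sums of 3937 to 4987 CPM in kidney, against 10579 to 11334 CPM in spleen and marrow. The part of these cell states in the chemokine differences was not tested. All 10 members passed the filter on low counts, but Cxcl1, Cxcl3, Cxcl13 and Cxcl14 passed it through kidney libraries, so a member of these could be tested because kidney held it. Among the 6 members that reached the filter's level in every spleen and marrow library, 5 rose. The count of 8 depends on single libraries, since it was 5 without spleen and marrow replicate 2, 24 or 26, where 2.31% to 2.57% of genes were called higher, and 7 without kidney replicate 8.

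**Figure D1:**
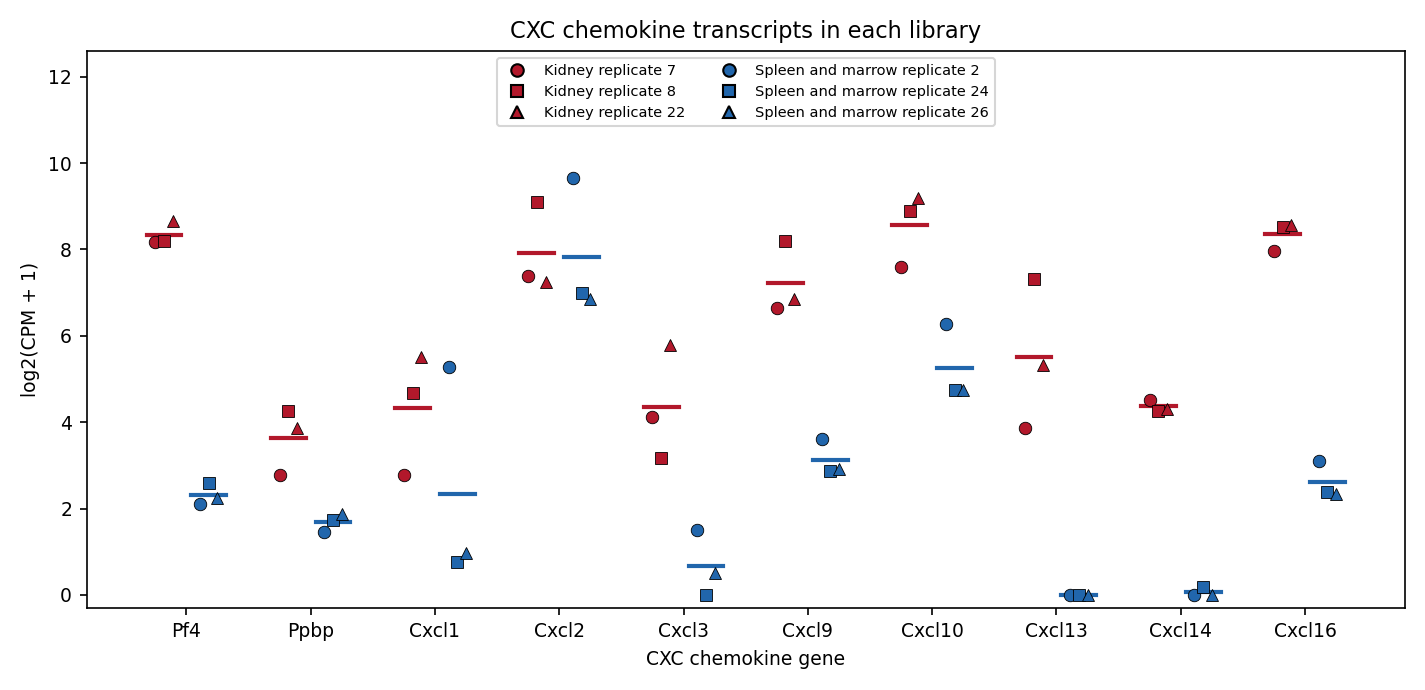
Level of each CXC chemokine transcript in each library, as log2(CPM + 1) on the vertical axis, with kidney libraries in red to the left and spleen and marrow libraries in blue to the right (symbols mark replicates, bars the mean of the 3 log values). The groups overlap for Cxcl1 and Cxcl2 and lie apart for the other 8 genes.

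Pf4 and Cxcl16 showed the steadiest difference. Pf4 had 285, 294 and 402 CPM in kidney replicates 7, 8 and 22, against 3.33, 5.06 and 3.75 CPM in spleen and marrow replicates 2, 24 and 26. The lowest kidney library was far above the highest spleen and marrow library, and the log2 fold change was 6.34 ± 0.26 (SE, edgeR adjusted p = 2.49e-05), or 80.9-fold. Cxcl16, whose membrane form also takes up oxidised lipoprotein and phosphatidylserine, had 248, 369 and 378 CPM in kidney replicates 7, 8 and 22, against 7.58, 4.24 and 4.07 CPM in spleen and marrow replicates 2, 24 and 26. Again no library of a group came near those of the other, and Cxcl16 rose by 5.96 ± 0.33 on the log2 scale (SE, edgeR adjusted p = 0.000133), or 62.2-fold. Kidney libraries differed among themselves by 1.41-fold for Pf4 and 1.53-fold for Cxcl16. Cxcl16 overlaps Zmynd15 in the RefSeq table (GRCm38.p6), and since strand is not marked, reads from the overlap cannot be told apart. Both calls held under each of the 17 alternatives, with log2 fold changes of 5.99 to 6.50 for Pf4 and 4.84 to 6.29 for Cxcl16.

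Ppbp, the neighbour of Pf4 on chromosome 5 and, like it, a chemokine of platelet granules, rose far less. It had 5.81, 18.1 and 13.5 CPM in kidney replicates 7, 8 and 22, against 1.72, 2.33 and 2.68 CPM in spleen and marrow replicates 2, 24 and 26, and its log2 fold change was 2.46 ± 0.52 (SE, edgeR adjusted p = 0.019). The groups lay apart, but by little in kidney replicate 7. The call was lost without kidney replicate 8 (adjusted p = 0.0556), without any 1 spleen and marrow library (0.0915 to 0.110), with replicates 24 and 26 summed (0.0901) and with limma-voom (0.0581), within a range of 0.000268 to 0.110 over all alternatives. Per length, Pf4 averaged 357 ± 17.4 FPKM and Ppbp 5.26 ± 2.72 FPKM in kidney, while in spleen and marrow Pf4 averaged 4.68 ± 1.16 FPKM and Ppbp 1.05 ± 0.247 FPKM (mean ± SD, n = 3 each).

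Of 12 platelet and megakaryocyte markers, 4 could be tested and 1 was called higher, where 7.83% of all genes tested were called higher. The sum of the 12 markers was 143 to 213 CPM in kidney against 42.7 to 105 CPM in spleen and marrow, most of it Thbs1, which monocytes also express. In kidney replicate 22, where Pf4 had 402 CPM, 10 of the 12 markers had 0 counts, among them Itga2b and Itgb3 (the platelet fibrinogen receptor), Gp9 and Clec1b. A 0 there allows up to 0.881 CPM by counting error alone. Some other genes at 0 in that library were far above this level in every other library, so these zeros may hide more. Kidney replicate 8 had 17.4 CPM of Gp9, 19.3 CPM of Clec1b and 12.8 CPM of Itgb3 and also the most Ppbp. Ppbp stood at 13.5 CPM in kidney replicate 22, where Gp1bb was at 20.0 CPM and those 3 genes were at 0. On the authors' FPKM, Pf4 had 347, 377 and 346 FPKM in kidney replicates 7, 8 and 22, so replicate 22 was highest on CPM and not on FPKM. The part of platelets in the Pf4 and Ppbp values was not tested.

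**Figure D2:**
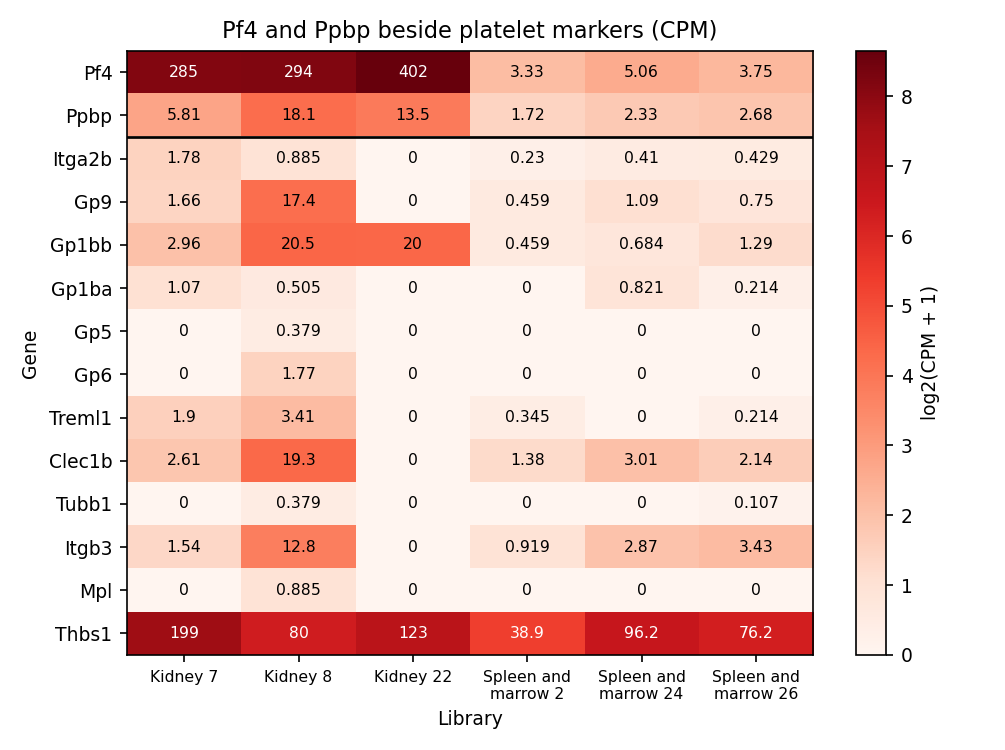
CPM of Pf4 and Ppbp above the line and of 12 platelet and megakaryocyte markers below it, one column per library with kidney on the left (colour: log2(CPM + 1), number: CPM). Pf4 is at 402 CPM in kidney replicate 22, the shallowest library, where 10 of the 12 markers are at 0. A 0 there allows up to 0.881 CPM by counting error alone and may hide more. The part of platelets was not tested.

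The interferon-inducible pair rose in kidney with unlike spread. Cxcl9 had 99.5, 294 and 114 CPM in kidney replicates 7, 8 and 22, against 11.1, 6.29 and 6.54 CPM in spleen and marrow replicates 2, 24 and 26. Kidney replicate 8 was the highest and held 57.9% of the summed kidney level, and the groups lay well apart. Cxcl9 rose by a log2 fold of 4.40 ± 0.50 (SE, edgeR adjusted p = 0.00171), and it was 3.72 without kidney replicate 8 (adjusted p = 0.00218, range over alternatives 2.96e-20 to 0.0195). Cxcl10 had 193, 472 and 587 CPM in kidney replicates 7, 8 and 22, against 76.1, 25.7 and 25.8 CPM in spleen and marrow replicates 2, 24 and 26. Here kidney replicate 7 was low and spleen and marrow replicate 2 was high within its group. The log2 fold change of Cxcl10 was 3.29 ± 0.56 (SE, edgeR adjusted p = 0.00935), and the call was lost without spleen and marrow replicate 24 or 26 (0.0531 and 0.0553) and with both summed into 1 library (0.0537), within 1.97e-09 to 0.0553 over all alternatives. Without spleen and marrow replicate 2 the log2 fold change was 3.99. Cxcl10 overlaps Art3 in the RefSeq table (GRCm38.p6), so reads from the overlap cannot be told apart. The Cxcl11 transcript was below the filter, and whether it gives a protein in these mice was not measured. It had 57, 133 and 0 counts in kidney replicates 7, 8 and 22, against 1, 0 and 2 counts in spleen and marrow replicates 2, 24 and 26. Its pooled ratio of kidney to spleen and marrow was 81.3 (95% exact binomial interval 27.4 to 398, for counting error only). Kidney replicate 22, with 0 counts, allows up to 0.881 CPM by counting error alone, and a 0 in that library may hide more.

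Genes induced by interferon-gamma were partly higher in the same libraries. Of 16 listed, 14 were tested, 5 rose and 0 fell, with a median log2 fold change of 1.19. Over all genes tested, 7.83% were called higher and 5.9% lower, with a median of 0.05. The GTPase gene Iigp1 rose by a log2 fold of 4.45 ± 0.57 (SE), the GTPase gene Gbp2 by 1.77 ± 0.32, Cd274, which encodes the checkpoint ligand PD-L1, by 2.70 ± 0.56, and the feedback inhibitor gene Socs1 by 1.90 ± 0.44. The edgeR adjusted p of these 4 lay between 0.00298 and 0.0262. Iigp1 was at 0.410 to 0.857 CPM in spleen and marrow, below the filter's level of 1.27 CPM, so it could be tested because kidney held it.

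Cxcl13 was a kidney transcript carried mainly by 1 library. It had 114, 1251 and 133 counts in kidney replicates 7, 8 and 22, or 13.5, 158 and 39.1 CPM, against 0 counts in each spleen and marrow library. Kidney replicate 8 held 75.0% of the summed kidney level, but the other kidney libraries were well above 0. The kidney level was at least 641-fold higher, computed against 3 counts over the spleen and marrow group, at least 176-fold higher without kidney replicate 8 and at least 1033-fold higher without kidney replicate 7. The edgeR adjusted p was 0.0119, or 0.0105 without kidney replicate 8, and the call was lost without spleen and marrow replicate 2 (0.0548) and with limma-voom (0.0942), within 4.84e-08 to 0.0942 over all alternatives. Endothelial markers had the same order of libraries only in part, with 943 CPM in kidney replicate 8 but 28.9 and 14.1 CPM in kidney replicates 7 and 22. Of these 12 markers 2 were tested and 0 called, and 0, 2 and 6 had no count in kidney replicates 8, 7 and 22. Fibroblast and mural markers summed to 57.2, 1241 and 44.9 CPM in kidney replicates 7, 8 and 22, against 12.4 to 14.9 CPM in spleen and marrow. Most of this sum was Sparc, with 40.2, 1176 and 29.7 CPM in kidney replicates 7, 8 and 22, against 0.345 to 1.07 CPM in spleen and marrow. Of these 11 markers, Lum had 0 counts in every library, 3 were tested and 1 was called higher, where 7.83% of all genes tested were called higher. Their part in the Cxcl13 level of kidney replicate 8 was not tested.

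Cxcl14, a chemokine of epithelia and resident tissues, was the most even member across kidney libraries on CPM. It had 185, 144 and 64 counts in kidney replicates 7, 8 and 22, or 21.9, 18.2 and 18.8 CPM, against 0, 1 and 0 counts in spleen and marrow replicates 2, 24 and 26. The highest kidney library was 1.20 times the lowest on CPM, and it held 37.2% of the summed kidney level. On the authors' FPKM, Cxcl14 ran from 3.48 to 6.52 FPKM in kidney with 41.1% in the highest library, and Pf4 was the most even member, with 35.2%. The pooled ratio was 504 (95% exact binomial interval 90.0 to 19965, for counting error only), and the edgeR adjusted p of 0.000634 held under each of the 17 alternatives (5.39e-11 to 0.00937). Over 12 kidney tubule markers, the summed level reached 210, 93.6 and 563 CPM in kidney replicates 7, 8 and 22, against 1.84 to 3.01 CPM in spleen and marrow. Of these 12 markers, 7 were tested and 5 called higher, where 7.83% of all genes tested were called higher. The part of tubule RNA in the Cxcl14 values was not tested.

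**Figure D3:**
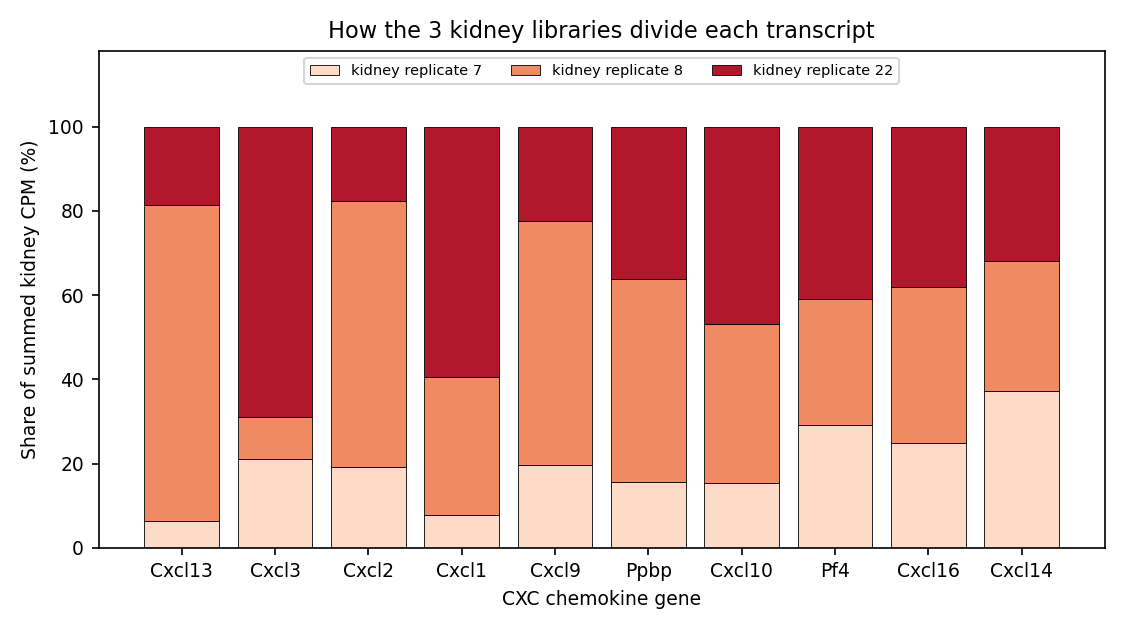
Share of each gene's summed kidney CPM found in kidney replicates 7, 8 and 22, as stacked percentages, ordered by the share of the highest library. Replicate 8 holds 75.0% of Cxcl13, replicate 22 holds 68.9% of Cxcl3, and Cxcl14 divides nearly evenly.

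The neutrophil-attracting genes Cxcl1, Cxcl2 and Cxcl3, with GGGAATTTCC in their promoters, differed widely between single libraries. They lie close together on chromosome 5, with Cxcl15 between Cxcl3 and Cxcl1. Cxcl2 had 166, 544 and 152 CPM in kidney replicates 7, 8 and 22, against 800, 127 and 115 CPM in spleen and marrow replicates 2, 24 and 26. The highest library of all was a spleen and marrow library, and the other kidney and spleen and marrow values lay side by side. Its log2 fold change was -0.27 ± 0.81 (SE, edgeR adjusted p = 0.867), and 1.24 without spleen and marrow replicate 2 (adjusted p = 0.299, range over alternatives 0.299 to 0.999). Cxcl1 had 5.81, 24.6 and 44.6 CPM in kidney replicates 7, 8 and 22, against 37.6, 0.684 and 0.965 CPM in spleen and marrow replicates 2, 24 and 26. Spleen and marrow replicate 2 lay within the kidney range, while replicates 24 and 26, with 5 and 9 counts, lay below it. The log2 fold change of Cxcl1 was 0.91 ± 1.33 (SE, edgeR adjusted p = 0.710), and 4.85 without spleen and marrow replicate 2 (adjusted p = 0.0535, range over alternatives 0.0535 to 0.938). Neither gene passed the test, which does not show that they were alike in the groups.

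Cxcl3 was called higher but is uncertain. It had 139, 63 and 184 counts in kidney replicates 7, 8 and 22, or 16.5, 7.96 and 54.0 CPM, against 16, 0 and 4 counts in spleen and marrow replicates 2, 24 and 26, or 1.84, 0 and 0.429 CPM. Kidney replicate 22 held 68.9% of the summed kidney level, and no spleen and marrow library reached the lowest kidney one. The log2 fold change was 5.03 ± 1.09 (SE, edgeR adjusted p = 0.0216), and the call was lost without any 1 spleen and marrow library (0.0507 to 0.120), with replicates 24 and 26 summed (0.0839), with limma-voom (0.0873) and on the authors' FPKM (0.0798 and 0.0952), within 3.97e-06 to 0.120 over all alternatives. Without kidney replicate 22 the log2 fold change of Cxcl3 was 3.92, and without spleen and marrow replicate 2 it was 6.67. The deposited FPKM of Cxcl3 were 10.2, 11.9 and 20.2 in kidney replicates 7, 8 and 22, against 9.51, 1.32 and 1.85 in spleen and marrow replicates 2, 24 and 26, so a library with 0 counts had a value above 0. FPKM per CPM ran from 0.374 to 5.18 over the libraries for Cxcl3, a 13.8-fold range, whereas for the other 9 members this range was 1.31-fold to 1.74-fold. Cxcl1, Cxcl2 and Cxcl3 are close in sequence, and reads may be divided between them.

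**Figure D4:**
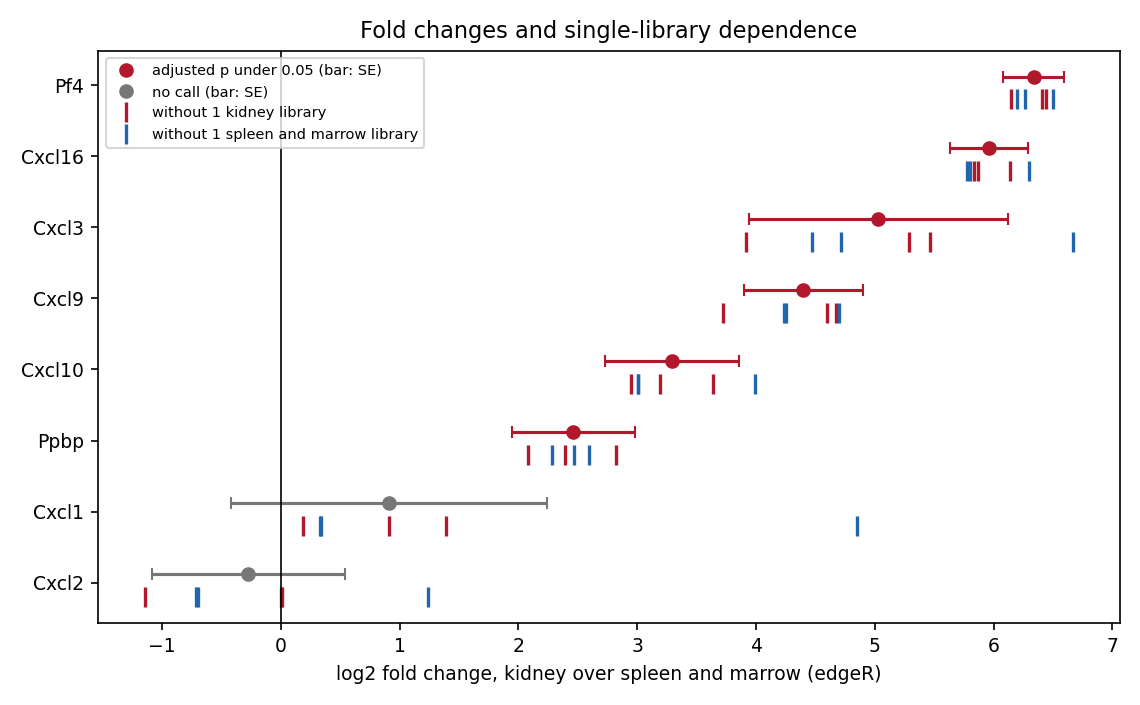
Log2 fold changes of 8 members, kidney over spleen and marrow, with circles for the edgeR estimate (bar: SE, red where the adjusted p is under 0.05) and ticks for fits that leave out 1 library (red: a kidney library, blue: a spleen and marrow library). Cxcl1 moves to 4.85 and Cxcl2 to 1.24 without spleen and marrow replicate 2, while Pf4 stays between 6.14 and 6.50. Cxcl13 and Cxcl14 are left out because spleen and marrow held 0 and 1 counts.

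Spleen and marrow replicate 2 stood apart from its group in these 3 genes. Its Cxcl1 level was 45.6 times the mean of replicates 24 and 26, and 0 of the other genes with such a ratio had a larger one. Cxcl3 was 8.57 times higher there, on few counts, with 2 genes above it, and Cxcl2 was 6.64 times higher, with 5 genes above it. Of the 10519 tested genes with a count in replicate 24 or 26, 191 (1.82%) were at least 2-fold higher in replicate 2, and the median ratio was 0.988. The other 107 tested genes, Cxcl13 among them, had no ratio. Cxcl10 had a ratio of 2.95, Cxcl16 of 1.82 and Cxcl9 of 1.74, while Pf4 (0.756) and Ppbp (0.688) were lower in replicate 2. Among 15 NF-kB inducible genes with a ratio, 7 were at least 2-fold higher in replicate 2, with Tnf at 6.16 times, the prostaglandin synthase gene Ptgs2 at 4.17 times and the inhibitor gene Tnfaip3 at 3.68 times the mean of replicates 24 and 26. None of the 14 tested interferon-gamma inducible genes reached 2-fold, where the highest was 1.88. This is a comparison of single libraries and has no test.

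**Figure D5:**
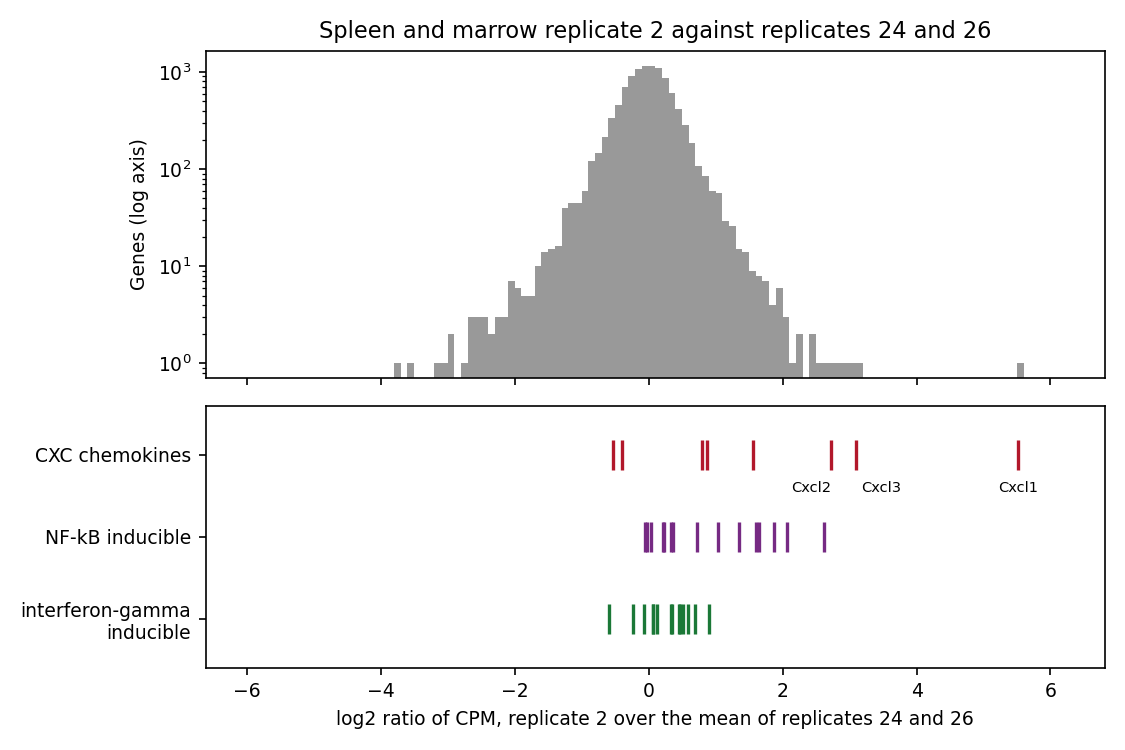
Log2 ratio of CPM in spleen and marrow replicate 2 over the mean of replicates 24 and 26, for all genes tested with a ratio above 0 (top, number of genes on a log axis) and for the genes of 3 lists (bottom, one tick per gene). Cxcl1, Cxcl3 and Cxcl2 lie at the far right, at 45.6, 8.57 and 6.64 times.

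Between kidney and spleen and marrow, 3 of the 16 NF-kB inducible genes rose and 0 fell, with a median log2 fold change of 0.52 over the list. Among all genes tested, 7.83% were called higher and 5.9% lower. Il1b, which encodes interleukin-1 beta, had 579, 933 and 547 CPM in kidney replicates 7, 8 and 22, against 105, 51.0 and 50.7 CPM in spleen and marrow replicates 2, 24 and 26, and rose by a log2 fold of 3.32 ± 0.36 (SE, edgeR adjusted p = 0.00149). The adhesion gene Icam1 rose by 1.46 ± 0.23 on the log2 scale and the activation marker gene Cd83 by 2.46 ± 0.46 (SE, edgeR adjusted p = 0.00688 and 0.012). Of 8 regulators of mRNA decay, a step that limits Cxcl1, Cxcl2 and Cxcl3 transcripts, Zfp36l1 rose by a log2 fold of 1.98 ± 0.30 (SE, edgeR adjusted p = 0.00587) and 0 fell. Zfp36, which encodes the destabilising protein tristetraprolin, was not called, with a mean of 885 ± 349 CPM in kidney, against 831 ± 20.8 CPM in spleen and marrow (SD over 3 libraries each).

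Genes that store, cut or shed chemokines were mixed. Of 12 listed, 11 were tested, 3 rose and 2 fell, where 7.83% of all genes tested were called higher and 5.9% lower. Srgn, which encodes the granule proteoglycan serglycin that holds Pf4 in platelets, averaged 2517 ± 306 CPM in kidney, against 1253 ± 217 CPM in spleen and marrow (SD over 3 libraries each), and the log2 fold change was 1.01 ± 0.16 (SE). The heparan sulfate proteoglycan gene Sdc4 had a log2 fold change of 5.55 ± 0.41 (SE), and the macrophage protease gene Mmp12 one of 6.16 ± 0.90. The neutrophil protease genes Mmp8 and Ctsg had log2 fold changes of -1.57 ± 0.28 and -4.36 ± 1.19 (SE). Ctsg varied widely, with 0.474, 9.98 and 58.1 CPM in kidney replicates 7, 8 and 22. It had 707, 290 and 314 CPM in spleen and marrow replicates 2, 24 and 26. The edgeR adjusted p of these 5 genes lay between 0.000484 and 0.0485. Adam10 and Adam17, which encode the proteases that shed Cxcl16, were not called, with log2 fold changes of 0.25 ± 0.28 and 0.69 ± 0.22 (SE, edgeR adjusted p = 0.615 and 0.0823).

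Apart from Cxcr4, the CXC receptor genes were low in these cells. Of 8 CXC receptor genes, 4 could be tested. Cxcr4, the receptor for the marrow retention factor Cxcl12, had 36.0, 20.3 and 45.5 CPM in kidney replicates 7, 8 and 22, against 54.3, 83.3 and 72.2 CPM in spleen and marrow replicates 2, 24 and 26. Every kidney library was below every spleen and marrow library, as were those of 18.8% of all genes tested, but the difference, -1.05 ± 0.31 on the log2 scale (SE, edgeR adjusted p = 0.0635), missed the threshold. Cxcr2 averaged 2.46 ± 2.99 CPM in kidney, against 3.63 ± 1.19 CPM in spleen and marrow, and Cxcr3 averaged 2.51 ± 0.978 CPM in kidney, against 3.06 ± 1.57 CPM in spleen and marrow (SD over 3 libraries each), with edgeR adjusted p of 0.689 and 0.801. In kidney, Cxcr2 was highest, at 5.87 CPM, in replicate 22, which also had the largest sum over the 12 neutrophil markers, Cxcr2 among them. Csf3r and Mmp8, of the same list, were highest in kidney replicate 7. Cxcr5, the receptor of Cxcl13, had 8 counts in all kidney libraries and 5 in all spleen and marrow libraries, and Cxcr6, the receptor of Cxcl16, had 0 in kidney and 2 in spleen and marrow. Cxcr1 had 0 counts in every library and Ackr1, a decoy receptor, had 1 count in kidney. Ackr3, the scavenging receptor for Cxcl12, had 12, 71 and 7 counts in kidney replicates 7, 8 and 22, against 0 in each spleen and marrow library, and was called higher (edgeR adjusted p = 0.0257), although it passed the filter through kidney libraries alone. Its level was at least 38.5-fold higher, at least 58.2-fold higher without kidney replicate 7 and at least 13.6-fold higher without kidney replicate 8, the library that held 943 CPM of endothelial markers.

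The remaining CXC ligands were below the filter and were not tested. Cxcl5, a neutrophil attractant of epithelia, had 30 counts in kidney replicate 8 and 0 elsewhere. Cxcl17, a mucosal chemokine, had 33 counts in kidney replicate 22 and 0 elsewhere. Cxcl12, a product of stromal and endothelial cells, had 1, 8 and 0 counts in kidney replicates 7, 8 and 22, against 0 in each spleen and marrow library. Cxcl15 had 0 counts in every library.

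Levels of different genes were compared on the authors' FPKM, which are scaled for length. In kidney the order from high to low was Pf4, Cxcl10, Cxcl2, Cxcl16, Cxcl13, Cxcl9, Cxcl3, Cxcl1, Cxcl14 and Ppbp. Pf4 averaged 357 ± 17.4 FPKM, with its lowest library above the highest value of Cxcl10 (mean 171 ± 70.9 FPKM, SD, n = 3), and every later pair of neighbours overlapped. In spleen and marrow Cxcl2 was first at 166 ± 188 FPKM, with its lowest library above the highest value of Cxcl10 (19.4 ± 13.1 FPKM), and Cxcl14 and Cxcl13 were last at or near 0 FPKM (mean ± SD, n = 3 each). Cxcl2 made up 72.1% to 84.1% of the summed FPKM of the family in spleen and marrow, where Pf4 made up 0.910% to 7.42%. In kidney Pf4 made up 33.9% to 56.9% and Cxcl2 6.90% to 24.4%. Summed in CPM, the 10 genes reached 1055, 2198 and 1802 in kidney replicates 7, 8 and 22, against 940, 171 and 159 in spleen and marrow replicates 2, 24 and 26. The CXCR2 ligands Cxcl1, Cxcl2, Cxcl3 and Ppbp together gave 194, 594 and 264 CPM in those kidney libraries, against 842, 130 and 119 CPM in those spleen and marrow libraries.

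By library and on CPM, 5 members were highest among kidney libraries in replicate 22, 4 in replicate 8 and 1, Cxcl14, in replicate 7. The highest library held 75.0% of the kidney level for Cxcl13, 68.9% for Cxcl3, 63.1% for Cxcl2, 59.4% for Cxcl1 and 57.9% for Cxcl9. Over all genes tested the median share was 44.0%, with quartiles of 39.0% and 52.6%. Cxcl13 thus stood above all but 3.98% of genes and Cxcl3 above all but 6.67%, while the shares of Cxcl14 (37.2%), Cxcl16 (38.0%) and Pf4 (41.0%) were below the median. On the authors' FPKM, 7 members were highest in replicate 8, among them Cxcl10, Cxcl16 and Pf4, 2 in replicate 22 and 1 in replicate 7, so the highest library depended on the scale.

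The genes most like each member over the 6 libraries, by Pearson correlation of log2(CPM + 1), are given as a description, since the libraries share depth and tissue. For Cxcl9 they were H2-Ab1, H2-Aa and Cd74 (r = 0.9997, 0.999 and 0.999), class II antigen presentation genes that, like Cxcl9, were highest in kidney replicate 8. For Cxcl16 they were Pdlim4, Zmynd15 and Bcl2a1b (r = 0.999, 0.998 and 0.997), where Zmynd15 is the gene that overlaps Cxcl16 and Bcl2a1b has near-identical copies between which reads may be divided. For Pf4 they were Tmem252, Ctsd and Bcl2a1b (r = 0.997, 0.996 and 0.996). For Cxcl14 they were C3ar1, Ccdc23 and C1qa (r = 0.998, 0.997 and 0.997), of which C1qa encodes a subunit of complement C1q and C3ar1 the receptor for C3a. For Cxcl13 they were S100a16, Ckb and Cd300ld (r = 0.998, 0.998 and 0.994), for Cxcl10 Cstb, Sod2 and Ppan (0.999, 0.993 and 0.992), for Cxcl3 Wdr43, Rasa1 and Mat2a (0.998, 0.996 and 0.994) and for Ppbp Prkar1a, Alg5 and Ly6i (0.995, 0.993 and 0.991). For Cxcl1 they were Tomm70a, Apool and Rsl1d1 (0.991, 0.987 and 0.977) and for Cxcl2 Cct3, Papola and Dnaja1 (0.965, 0.964 and 0.959), 6 genes whose log2 fold changes between the groups lay between -0.01 and 0.21.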

How the data were processed

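The 6 libraries are listed above. Full-length cDNA was made from 2 ng of RNA with SMART-Seq v4 reagents and sheared to about 150 bp, per the labels' protocols. This chemistry does not mark strand. The authors deposited whole-number raw counts per gene (24047 rows) and FPKM values (24043 rows). The submitters' processing notes name the build mm9 and the tools STAR 2.5, Cufflinks 2.2.1 and bcl2fastq 2.18. The counting program is not given in the sources used here. The 92 spike-in rows held 0 counts and were left out. The RefSeq table (GRCm38.p6), used for gene order and overlap alone, holds 22452 of the count symbols as current ones.

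Kidney was compared with spleen and marrow on the counts in edgeR 4.0.16 under R 4.3.3 (filterByExpr, TMM, glmQLFit, glmQLFTest, two-sided), and Benjamini-Hochberg adjusted p-values under 0.05 were calls. SE is the size of the log2 fold change over the square root of F. FPKM served for levels between genes and, as log2(FPKM + 1) or log2(FPKM + 0.1) with limma 3.58.1, as alternatives. Other alternatives were DESeq2 1.42.0, limma-voom, other scalings and filters, a robust fit, a threshold of 0.01, spleen and marrow replicates 24 and 26 added together, and leaving out each library. The edgeR step was tested on simulated data. Intervals and floors (3 counts) cover counting error only, since reads carry no molecular identifiers. The members and all lists were chosen with earlier results of these data known. Named genes are all members, other CXC ligands and receptors, up to 4 called genes per list and direction, and the 3 genes most like each member above a floor of 4 in mean log2 CPM. Genes named outside this rule (Tnf, Ptgs2, Tnfaip3, Zfp36, Adam10, Adam17 and single markers) were chosen after their values were seen. Figures were drawn with matplotlib 3.10.9.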

Additional observations from a re-analysis of the deposited data

How the results depend on the processing

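The number of members called higher in kidney, 8 as reported, was 5 with limma-voom, 5 with spleen and marrow replicates 24 and 26 summed and 5 at a threshold of 0.01, and ran from 5 to 8 on leaving out 1 library. It was 7 on FPKM and 8 under the other 6 alternatives. The number called lower was 0 in each of the 17 alternatives. Cxcl9, Cxcl14, Cxcl16 and Pf4 were called in all 17, and Cxcl1 and Cxcl2 in none. Cxcl2 turned positive with limma-voom (log2 fold change 0.13) and ran from -1.14 to 1.24 on leaving out 1 library. The cause was not tested. Over all genes, 832 were higher and 627 lower as reported, 1569 and 1215 without kidney replicate 22, 260 to 289 and 179 to 208 without 1 spleen and marrow library, 299 and 201 with replicates 24 and 26 summed, 407 and 654 on log2(FPKM + 1), 407 and 573 on log2(FPKM + 0.1), 737 and 838 with limma-voom, 1164 and 995 with DESeq2 and 322 and 189 at a threshold of 0.01. The median log2 fold change of all genes was 0.05 as reported, -0.16 and -0.22 on the 2 FPKM scales and 0.18 with no filter. On FPKM, the share held by the highest kidney library moved beyond its counting interval for 8 members, and with medians in place of means 4 members changed place in the kidney level order and 7 in the spleen and marrow order. No paired analysis was possible because the groups share no replicate number. In the shallowest library, kidney replicate 22, a count of 0 allows up to 0.881 CPM by counting error alone, and a 0 there may hide more.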
